A study of Mus musculus with 20 samples.

Results

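The 4 FAP libraries and the 2 SMP libraries of DKO mouse muscle were compared gene by gene. They were picked by their titles and make up 6 of the 20 libraries of the series, which measured RNA of 3 cell populations under DKO and WT conditions by paired-end sequencing. All came from the quadriceps, tibialis anterior and gastrocnemius. The labels give the population and the condition only: they name no strain, age or number of mice per library, and how the cells were separated is not stated there. Every library compared here carries DKO, so the deletion is common to both sides. Values of the 4 FAP WT and 2 SMP WT libraries are given for the spread between SMP libraries and for the FAP to SMP difference of WT. All 20 libraries entered the same statistical fit, so the filter, the scaling and the spread behind each p-value draw on all of them. No label says which genes DKO removes. As an assumption from background, it is read as loss of the filament protein desmin (Des) and the nuclear envelope protein nesprin 1 (Syne1).

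In muscle research the abbreviation FAP is usual for fibro/adipogenic progenitors, which are mesenchymal cells that sit between muscle fibres, carry the receptor Pdgfra and the surface protein Ly6a, and lay down connective tissue. The abbreviation SMP is used for progenitors of skeletal muscle, the satellite cells held under the basement membrane of a fibre, which carry the transcription factor Pax7. On activation these switch on Myod1 and then Myog, divide, and fuse into fibres. Fibrotic muscle holds excess collagen, and the title of the series asks which cells express it.

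Library totals were 6.74 to 11.0 M counts in FAP and 6.12 and 5.83 M in SMP. Levels are in CPM (counts per 1e+06 of the scaled library total), listed for FAP in the order of replicates 1 to 4 and for SMP as replicate 1, then 2. A difference is a log2 fold change, FAP minus SMP, ± its standard error, with n of 4 against 2. Each adjusted p comes from the quasi-likelihood test of edgeR, adjusted by Benjamini-Hochberg over the 14179 genes tested, and a gene below 0.05 is said to be called. The design text calls the replicates biological without naming animals, so p-values measure the spread between libraries, shared over all 6 groups of the fit. With only the compared groups in the fit, 7378 genes were called in place of 8344. Each difference was also refitted against SMP replicate 1 alone, without replicate 2. The outcome is given for many genes and lists, though not for every gene named. The refit leaves 1 SMP library, which is assumed to vary as the other groups do.

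SMP replicate 2 stood apart. Across genes (no independent replicates), the Pearson correlation of log2(CPM + 1) between the SMP libraries was 0.962, against 0.986 to 0.99 among the FAP libraries and 0.985 between the SMP WT libraries. Replicate 2 held 300 tested genes at 4 or more times the level of replicate 1 and at 5 CPM or more, and replicate 1 held 4 such genes over replicate 2. In SMP WT the corresponding counts were 18 and 3. The 22 immune markers of the list that the table holds, among them the leukocyte antigen gene Ptprc, summed to 44.1 CPM in replicate 1 and 985 in replicate 2. In FAP they summed to 129, 39.8, 31.8 and 30.4 CPM. The 14 endothelial markers summed to 146 and 868 CPM in SMP against 151 to 278 in FAP. In SMP WT the immune sums were 33.1 and 24.5 CPM and the endothelial sums 405 and 303. For the endothelial list replicate 1 thus lay below both SMP WT libraries, and replicate 2 above both. The FAP identity list also differed between the SMP libraries, at 2318 and 11759 CPM, with FAP at 82419 to 104062. The satellite cell and myogenic list did not separate them in the same way, at 6636 and 6156 CPM against 879 to 938 in FAP. In bulk RNA, fewer cells of a type and less RNA per cell cannot be told apart.

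**Figure D1:**
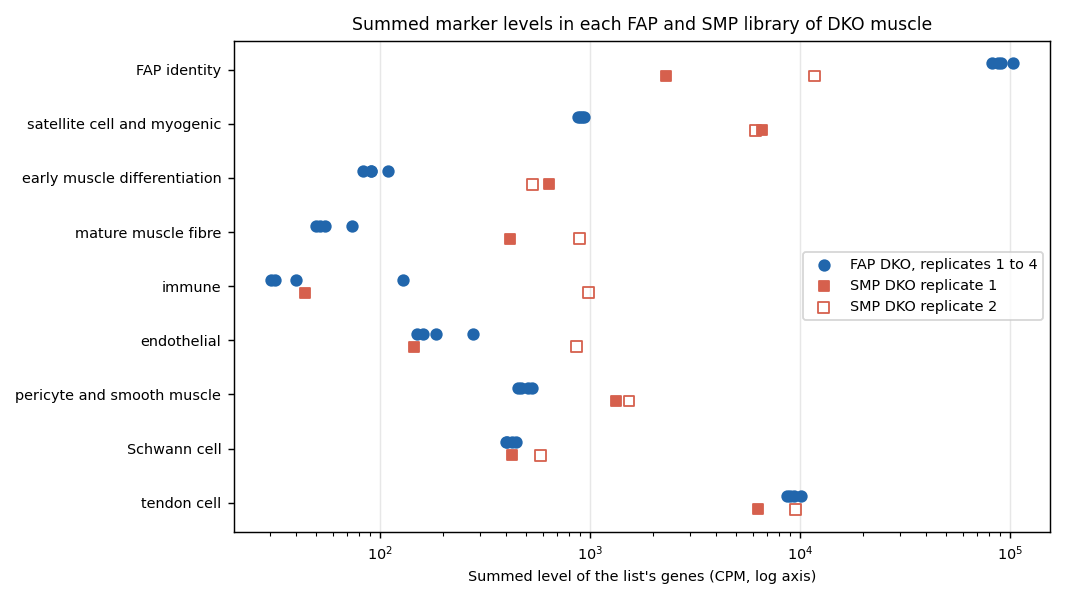
Summed level (CPM, log axis) of the genes of 9 marker lists, with 1 point per library: blue circles are the 4 FAP DKO libraries, the filled square is SMP DKO replicate 1 and the open square replicate 2. The SMP squares lie close together for the satellite cell and early differentiation lists and apart for the immune list (44.1 and 985.2 CPM) and the endothelial list (145.7 and 868.2 CPM).

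The libraries carried the defining markers of their labels. Pdgfra stood at 1067, 935, 1192 and 1008 CPM in FAP and at 10.2 and 112 in SMP, and lies on chromosome 5 from 75151322 to 75198206 (Entrez gene 18595) in GRCm38. Ly6a, on chromosome 15 from 74994877 to 74998031 (Entrez gene 110454), had 527, 431, 453 and 527 CPM in FAP and 3.43 and 78.8 in SMP. Pax7, on chromosome 4 from 139737059 to 139833530 (Entrez gene 18509), had 0.09, 0, 0.19 and 0.1 CPM in FAP and 125 and 100.2 in SMP. For all 3 the groups did not overlap, and for Pdgfra and Ly6a it was replicate 2 that held more. Pdgfra was higher in FAP by 4.11 ± 0.60 (adjusted p = 3.2e-05), and by 6.70 ± 0.26 against replicate 1 alone. Ly6a was higher by 3.57 ± 0.72 (adjusted p = 0.00058), and by 7.15 ± 0.45 against replicate 1. In a fit of the compared groups only, Ly6a was no longer called (adjusted p = 0.075). Pax7 was lower in FAP, at −9.89 ± 0.56 (adjusted p = 2.8e-10) and −10.03 ± 0.60 against replicate 1.

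Over all genes, 8344 of 14179 were called (58.8%), of which 4140 were higher in FAP (29.2%) and 4204 lower (29.6%). These shares of 29.2% and 29.6% are the background for every list count of this comparison below. Against replicate 1 alone 7436 were called (52.4%), 3821 higher (26.9%) and 3615 lower (25.5%). Of the 4140 higher genes 3562 (86%) were called the same way against replicate 1, and of the 4204 lower genes 3454 (82.2%). No higher gene changed sign, whereas 77 of the lower genes did. Among calls of at least 4-fold, 983 were higher (6.93%) and 1192 lower (8.41%), of which 922 and 970 were called alike against replicate 1. Of the 300 genes high in replicate 2, 141 were called lower in FAP with both libraries and 11 against replicate 1 alone. All 4 FAP libraries lay above both SMP libraries for 4664 genes (32.9%) and below both for 4631 (32.7%). The median difference was 0 under TMM scaling and −0.32 under library totals, where 31.8% of the calls were higher in FAP in place of 49.6%.

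Every tested gene of the FAP identity list was higher in FAP: 19 of 19, each also against replicate 1 alone, with a median difference of 3.70 against 0 over all genes, of which 29.2% were higher. The median was 5.30 against replicate 1 and 2.97 against replicate 2. Gsn, which codes for the actin-severing protein gelsolin, was the most abundant of them at 51107, 61108, 69246 and 55362 CPM in FAP and 1232 and 7133 in SMP. Cd248, the mesenchymal surface protein endosialin, was at 364, 313, 346 and 331 CPM in FAP and 2.9 and 25.04 in SMP. Both genes were far below every FAP library in either SMP library. Gsn differed by 3.82 ± 0.47 (adjusted p = 1.9e-06) and by 5.60 ± 0.25 against replicate 1. Cd248 differed by 4.62 ± 0.53 (adjusted p = 2.2e-06) and by 6.87 ± 0.40. Pi16, a marker of adventitial fibroblasts, differed by 4.20 ± 0.72 (adjusted p = 0.00015) and by 7.13 ± 0.56 against replicate 1. Clec3b, which codes for the plasminogen-binding protein tetranectin, differed by 4.35 ± 0.56 (adjusted p = 8.1e-06) and by 6.58 ± 0.30. In SMP replicate 1 the 19 genes stood at 0.707% to 16.1% of their FAP mean (median 2.55%), and in replicate 2 at 7.4% to 42.3% (median 12.9%). Replicate 2 was the higher of the pair for each of the 19.

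**Figure D2:**
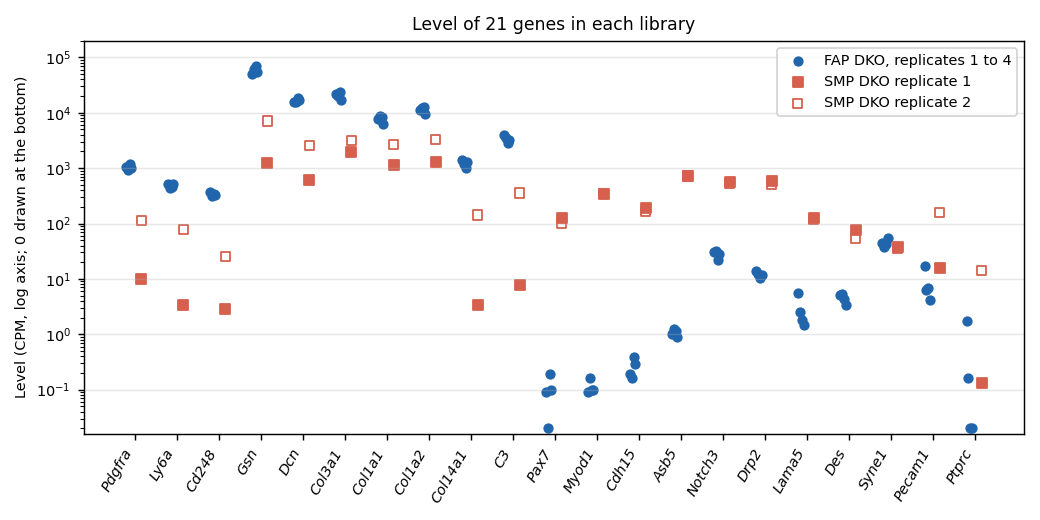
Level (CPM, log axis, a value of 0 drawn at the bottom) of 21 genes in each library: blue circles are FAP DKO replicates 1 to 4, filled squares SMP DKO replicate 1 and open squares replicate 2. FAP identity and collagen genes lie above both squares and myogenic genes below both, while for Pdgfra the SMP squares are at 10.2 and 112 CPM.

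Transcription factors of connective tissue followed, with 14 of 19 higher in FAP, 2 lower and a median of 2.10. Against replicate 1 alone 13 of the 14 and both lower genes were called. Osr1, a factor of connective tissue fibroblasts, was at 34.8, 35.7, 31.8 and 28.5 CPM in FAP and at 0.26 and 3.7 in SMP, a difference of 4.09 ± 0.42 (adjusted p = 1.2e-07). Tbx5, a forelimb and heart factor, was at 10.4, 8.46, 11.8 and 14.2 CPM in FAP and 0.26 and 0.89 in SMP, a difference of 4.31 ± 0.42 (adjusted p = 7.1e-09). Both were also called against replicate 1, which held 2 counts of each. Ebf2, a factor of adipose and mesenchymal precursors, differed by 3.19 ± 0.19 (adjusted p = 1.9e-12) and by 3.64 ± 0.23 against replicate 1. Meox1, a homeobox factor, differed by 3.18 ± 0.27 (adjusted p = 5.5e-09) and by 3.92 ± 0.29. The lower genes were Runx1 (−2.66 ± 0.26, adjusted p = 1e-07) and Foxp1 (−0.93 ± 0.12, adjusted p = 3e-07), both called against replicate 1. Prrx1, a limb mesenchyme factor, was called with both SMP libraries (0.66 ± 0.17, adjusted p = 0.0017) and not against replicate 1 (adjusted p = 0.053).

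The genes with the largest differences toward FAP were a mixed group. Mrgprg, an orphan receptor gene, was at 21.5, 43.7, 4.55 and 16.2 CPM in FAP and at 0 and 0.44 in SMP, a difference of 6.57 ± 1.64 (adjusted p = 0.0052). It was called against replicate 1 alone, which held 0 counts (adjusted p = 0.032), and not without replicate 1, where it was 5.55 (adjusted p = 0.059). C7, a late component of complement, was at 47.1, 84.1, 639 and 65.5 CPM in FAP and 1.58 and 3.85 in SMP. FAP replicate 3 alone lay far above the rest, and the difference of 6.29 ± 1.50 became 4.61 without it (adjusted p = 0.0022 and 0.0011). It was 7.05 ± 2.31 against SMP replicate 1 alone (adjusted p = 0.02), and 6.29 but not called with only the compared groups in the fit (adjusted p = 0.068). Stmn4, which codes for a microtubule-binding stathmin, was at 43.6, 28.04, 37.95 and 36.4 CPM in FAP and 0 and 2.81 in SMP, where replicate 1 held 0 counts. Against a floor of 3 counts in replicate 1, the FAP mean was at least 92.3-fold higher for Stmn4. The carboxylesterase genes Ces2g (4.92 ± 0.61) and Ces1d (4.80 ± 0.50), the protease gene Pappa (4.61 ± 0.51), which cleaves binding proteins of insulin-like growth factor, the methyltransferase gene Inmt (4.49 ± 0.64) and Kcp (4.59 ± 0.43), which codes for a modulator of bone morphogenetic proteins (BMPs), were all called in both fits.

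Fibrillar collagen genes, which build the load-bearing fibres of connective tissue, were split: 7 of 11 were higher in FAP and 4 lower, with a median of 1.58. Col3a1 was at 21816, 19915, 23641 and 17066 CPM in FAP and 1935 and 3182 in SMP. Col1a2 was at 11337, 12325, 12978 and 9587 CPM in FAP and 1297 and 3298 in SMP. Col1a1 was at 7576, 8903, 8383 and 6328 CPM in FAP and 1156 and 2639 in SMP. Each FAP library lay above each SMP library for all 3, and SMP replicate 2 held more than replicate 1. Col3a1 differed by 3.01 ± 0.23 (adjusted p = 1e-10) and by 3.42 ± 0.26 against replicate 1. Col1a2 differed by 2.33 ± 0.27 (adjusted p = 1.2e-07) and by 3.17 ± 0.25, and Col1a1 by 2.04 ± 0.27 (adjusted p = 8.7e-07) and 2.76 ± 0.28. Per kilobase of exon the mean levels in FAP were 2100 CPM for Col3a1, 930.1 for Col1a2 and 1188 for Col1a1, and in SMP 261, 185 and 289. The type V chains Col5a1, Col5a2 and Col5a3 were also higher in FAP (1.73, 1.78 and 1.58), as was Col27a1 (0.92), and all 4 held against replicate 1.

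The fibrillar chains lower in FAP were Col11a1, Col11a2, Col24a1 and Col2a1. Col11a1 was at 24.3, 16.1, 12.5 and 22.2 CPM in FAP and 81.7 and 104 in SMP, a difference of −2.30 ± 0.19 (adjusted p = 4.4e-10) and of −2.10 ± 0.22 against replicate 1. Col11a2 differed by −2.39 ± 0.41 (adjusted p = 0.00011) and by −1.66 ± 0.49, and Col24a1 by −3.72 ± 0.36 (adjusted p = 7.5e-09) and −3.95 ± 0.41. Col2a1 was called with both libraries (−2.87 ± 0.69, adjusted p = 0.0023) but not against replicate 1 (−2.04 ± 0.94, adjusted p = 0.083).

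The share of the FAP mean that the SMP libraries held differed widely between genes. In replicate 1, the FAP identity list ran from 0.707% to 16.1% and the basement membrane list from 4.43% to 130%, so the lists overlapped. The genes given next were chosen after their values were seen. In replicate 1, Pdgfra stood at 0.966% of its FAP mean, Ly6a at 0.707%, C3 at 0.224% and Col14a1 at 0.281%. The same library held Col3a1 at 9.39%, Col1a2 at 11.2%, Col1a1 at 14.8% and fibronectin (Fn1) at 16.4% of the FAP mean. Several basement membrane genes stood higher again, with Col4a1 at 28.6%, Lama2 at 30%, Lamc1 at 34.2% and perlecan (Hspg2) at 34.6%, though the nidogen gene Nid1 was at 6.96%. In replicate 2 Pdgfra, Ly6a, C3 and Col14a1 were at 10.4% to 16.3% and Col4a1, Lama2, Lamc1 and Hspg2 at 35.1% to 36.4%. Over all 17 basement membrane genes at 20 CPM or more in FAP, 15 were higher in replicate 2. These percentages describe the libraries and carry no test.

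**Figure D3:**
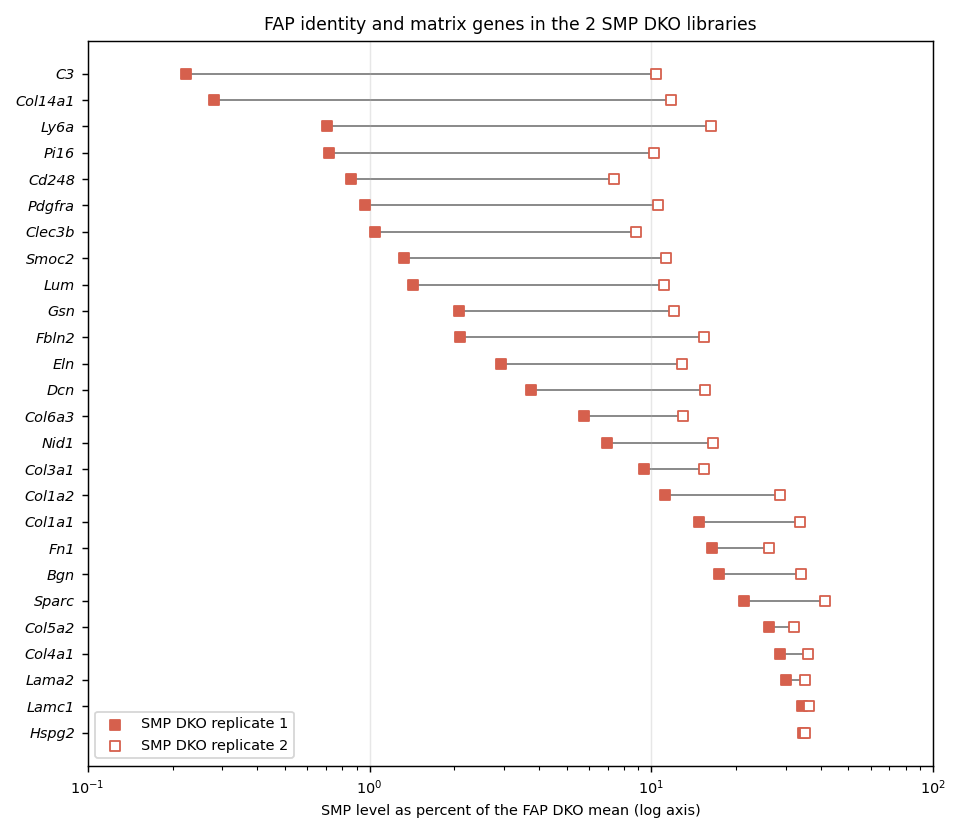
Level of 26 FAP identity and matrix genes in SMP DKO replicate 1 (filled squares) and replicate 2 (open squares), as percent of the mean of the 4 FAP DKO libraries (log axis). Replicate 1 runs from 0.224% for C3 to 34.6% for Hspg2, whereas replicate 2 starts at 7.4% for Cd248.

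Genes of the basement membrane, the sheet that wraps fibres and vessels, were mostly higher in FAP: 17 of 23, with 2 lower and a median of 1.63. Of these, 16 and both lower genes held against replicate 1. Nid1, which codes for the linker protein nidogen 1, differed by 3.09 ± 0.23 (adjusted p = 1.2e-10) and by 3.86 ± 0.20 against replicate 1. Lamb1, a laminin beta chain, differed by 3.11 ± 0.25 (adjusted p = 9.3e-10) and by 3.93 ± 0.22. Col4a5, a type IV collagen chain, was at 183, 167, 224 and 136 CPM in FAP and 8.57 and 27.3 in SMP (3.32 ± 0.35, adjusted p = 3.4e-07). The laminin alpha chains went both ways. Lama5 was at 5.6, 2.51, 1.84 and 1.47 CPM in FAP and 125 and 117 in SMP, a difference of −5.38 ± 0.44 (adjusted p = 3.9e-08) and of −5.41 ± 0.50 against replicate 1. Lama3 was at 9.14, 5.33, 2.52 and 4.8 CPM in FAP and 186 and 129 in SMP, with −4.85 ± 0.41 (adjusted p = 6.8e-08) and −5.07 ± 0.46. Both SMP libraries thus held more Lama3 and Lama5 than any FAP library, whereas Lama2 (1.62) and Lama4 (3.03) were higher in FAP. Lamb3, at 2.42, 2.19, 1.36 and 1.76 CPM in FAP and 0.53 and 0.3 in SMP, was called with both libraries only (adjusted p = 0.054 against replicate 1).

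Of the 22 other collagen genes tested, 11 were higher in FAP and 7 lower, with 11 and 6 held against replicate 1. The lower count was near the 29.6% of all genes that were lower, beside 29.2% higher. Col14a1, a chain that decorates fibrils, was at 1403, 1189, 1009 and 1271 CPM in FAP and 3.43 and 143 in SMP, a difference of 4.06 ± 0.83 (adjusted p = 0.0007) and of 8.48 ± 0.38 against replicate 1. With only the compared groups in the fit it was not called (adjusted p = 0.087). The type VI chains Col6a1, Col6a2 and Col6a3, which form beaded filaments around cells, differed by 2.45, 3.04 and 3.41, and all were called in both fits. Toward SMP lay Col19a1, at 0.19, 0, 0 and 0.1 CPM in FAP and 60.8 and 32.9 in SMP (−9 ± 0.65, adjusted p = 2.3e-09). Col26a1 was at 1.12, 0, 0.1 and 0.2 CPM in FAP and 52.3 and 49.04 in SMP (−6.96 ± 0.46, adjusted p = 9.1e-10). Col22a1, found at the junction of muscle and tendon, was at 14.6, 9.71, 5.52 and 8.03 CPM in FAP and 148 and 177 in SMP (−4.10 ± 0.34, adjusted p = 3.2e-08). These 3 chains had no overlap between groups and were lower against replicate 1 as well (−9.36, −6.99 and −3.95). Col12a1 was called with both libraries (−0.32 ± 0.13) and not against replicate 1 (adjusted p = 0.33).

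Proteoglycans and elastic fibre genes were largely on the FAP side. Of 14 small leucine-rich proteoglycan genes, whose products bind collagen fibrils, 10 were higher and 3 lower, with 9 and 0 held against replicate 1. Decorin (Dcn) was at 15362, 15519, 18650.3 and 16994 CPM in FAP and 621 and 2580.4 in SMP, a difference of 3.38 ± 0.36 (adjusted p = 1.2e-07) and of 4.76 ± 0.20 against replicate 1. Lumican (Lum) differed by 4.00 ± 0.54 (adjusted p = 1.2e-05) and by 6.14 ± 0.22, and podocan (Podn) by 3.90 ± 0.63 (adjusted p = 8.8e-05) and 6.87 ± 0.45. The 3 lower genes, Fmod, Kera and Chad, are also on the tendon list. Fmod was at 650.4, 474, 352 and 581 CPM in FAP and 499.6 and 1678 in SMP, so replicate 1 lay within the FAP range and replicate 2 above it. Epyc was the tenth higher gene and, at low level, was lost against replicate 1 (adjusted p = 0.1). Of 27 elastic fibre and glycoprotein genes, 23 were higher and 1 lower (Npnt, −2.55), and all 24 held. Elastin (Eln) was at 609, 922, 770.1 and 538 CPM in FAP and 20.8 and 90.5 in SMP, a difference of 3.68 ± 0.46 (adjusted p = 4.1e-06) and of 5.10 ± 0.38 against replicate 1. Fibronectin (Fn1) was at 6823, 6918, 5619 and 6899 CPM in FAP and 1074 and 1723 in SMP (2.23 ± 0.18, adjusted p = 4.8e-10), and 2.62 ± 0.21 against replicate 1. Fbln2, Mfap5 and Efemp1, which code for glycoproteins of elastic fibres, differed by 3.52, 3.82 and 3.94, called in both fits.

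Matricellular genes, whose products sit in the matrix and signal to cells, counted 12 of 18 higher and 4 lower, and each held against replicate 1. The higher count was 10 with DESeq2 size factors, with a replicate block and without any 1 of the FAP libraries. It was 9 with only the compared groups, 8 under library totals and 13 with a column letter block. Smoc2, which codes for a SPARC-related calcium-binding protein, was at 3607, 3946, 4450.1 and 4149 CPM in FAP and 53.9 and 457 in SMP, a difference of 3.98 ± 0.58 (adjusted p = 2.8e-05) and of 6.24 ± 0.29 against replicate 1. Nov, of the CCN family, differed by 3.86 ± 0.43 (adjusted p = 1.4e-06) and by 5.51 ± 0.34. The lower genes were osteopontin (Spp1, −4.02), Wisp1 (−2.65), Smoc1 (−1.33) and tenascin C (Tnc, −0.58). The relatives Smoc1 and Smoc2 therefore lay on opposite sides.

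Enzymes that make and cut collagen were also higher in FAP. Of 24 collagen processing genes 21 were higher and 1 lower, with 20 and 1 held. Adamts2, which trims the amino-terminal propeptide of collagen, was at 601, 592, 630.0 and 578 CPM in FAP and 17.9 and 79.4 in SMP, a difference of 3.63 ± 0.38 (adjusted p = 3.3e-07) and of 5.08 ± 0.21 against replicate 1. Pcolce, the enhancer of the carboxy-terminal protease, differed by 2.91 ± 0.30 (adjusted p = 1.3e-07) and by 3.97 ± 0.22, and Pcolce2 by 3.20 ± 0.39 (adjusted p = 3.5e-06) and 4.64 ± 0.29. The crosslinking enzyme Loxl4 differed by 2.58 ± 0.36 (adjusted p = 1e-05) and by 4.12 ± 0.28. The lower gene was the prolyl hydroxylase Leprel1 (−0.83), and Plod2 was lost against replicate 1 (adjusted p = 0.46). Among 25 matrix proteases and inhibitors 18 were higher and 4 lower, with 17 and 1 held. Mmp3, which codes for stromelysin 1, was at 106, 174, 88.7 and 138 CPM in FAP and 1.19 and 15.3 in SMP (3.98 ± 0.62, adjusted p = 6e-05), and 6.73 ± 0.82 against replicate 1. Mmp23 (4.12 ± 0.43) and the collagen-degrading cathepsin gene Ctsk (2.94 ± 0.30) were called in both fits. The lower gene that held was Mmp15 (−2.85), a membrane-type protease, while Mmp9, Timp4 and Adamts9 did not pass against replicate 1. Timp4 was at 1.31, 0, 0.29 and 0 CPM in FAP and 0.66 and 7.11 in SMP, and leaving out FAP replicate 2, 3 or 4 also ended its call (adjusted p of 0.079, 0.087 and 0.091).

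**Figure D4:**
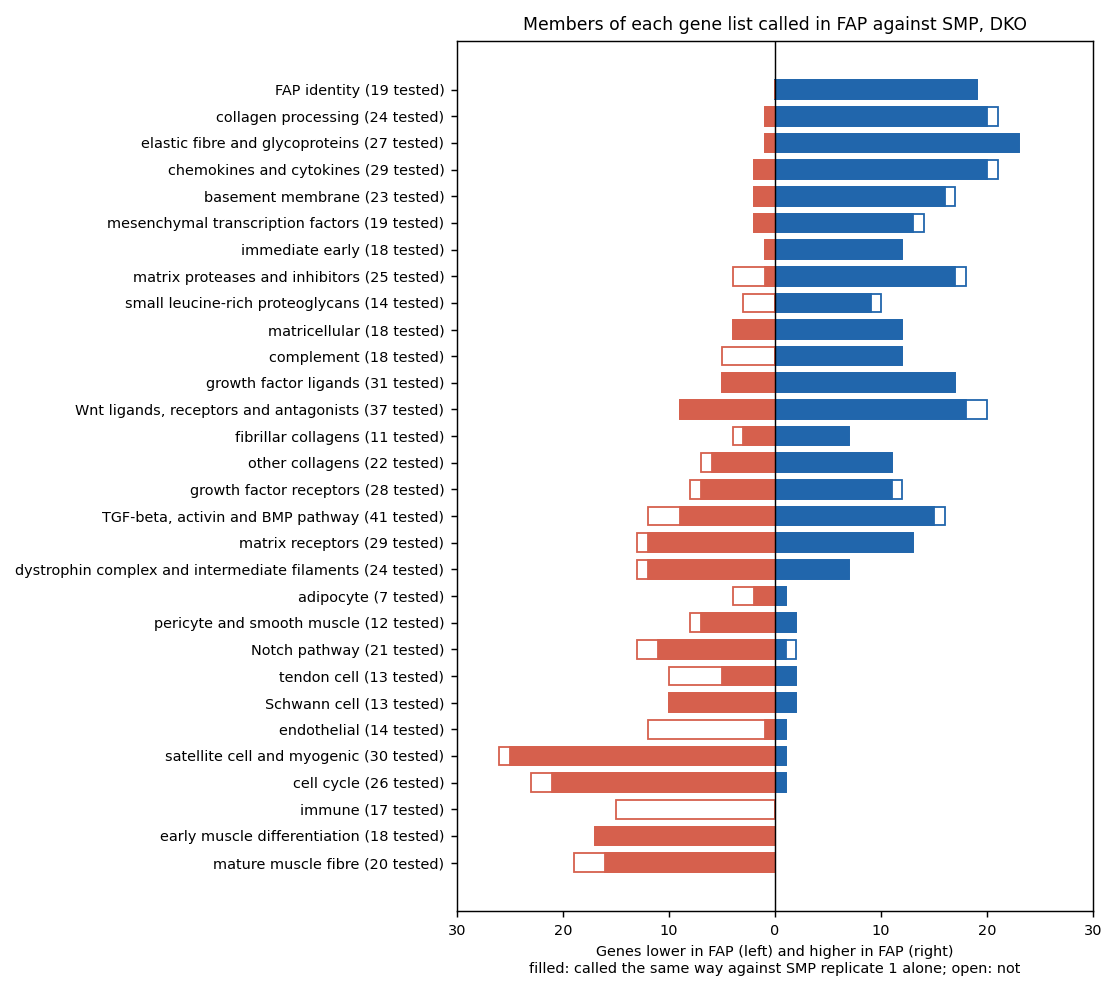
Number of genes of 30 lists called higher (blue, right) or lower (red, left) in FAP than in SMP of DKO muscle. The filled part was called the same way against SMP replicate 1 alone: all 19 FAP identity genes were, and 0 of the 15 lower immune genes.

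On the SMP side, 26 of 30 satellite cell and myogenic genes were lower in FAP, against 29.6% of all genes, and 1 was higher (Gas1, 0.56), with 25 and 1 held and a median of −5.21 (−5.11 with the 1 member at 0 in a group set to its bound). Myod1, the factor that commits a cell to muscle, was at 0.09, 0.16, 0.1 and 0.1 CPM in FAP and 338 and 353 in SMP. Myf5, its relative, was at 0.28, 0.16, 0.1 and 0.2 CPM in FAP and 152 and 122 in SMP. Myog, the factor of terminal differentiation, was at 0.28, 0, 0.1 and 0 CPM in FAP and 86.7 and 51.6 in SMP. FAP libraries held next to nothing of these factors, and the SMP libraries were alike in Myod1. Myod1 differed by −11.51 ± 0.62 (adjusted p = 3.7e-10), Myf5 by −9.43 ± 0.61 (adjusted p = 2.1e-09) and Myog by −9.19 ± 0.79 (adjusted p = 6.8e-08). Against replicate 1 the values were −11.47 ± 0.68, −9.57 ± 0.66 and −9.51 ± 0.84. The calcitonin receptor gene Calcr, which marks quiescent satellite cells, was at 0.37, 0.16, 0.19 and 0 CPM in FAP and 157 and 98.7 in SMP (−9.34 ± 0.71, adjusted p = 2.6e-08). M-cadherin (Cdh15), which joins satellite cells to fibres, was at 0.19, 0.16, 0.39 and 0.29 CPM in FAP and 192 and 163 in SMP (−9.32 ± 0.64, adjusted p = 7.1e-09). Vcam1, an adhesion gene also expressed by FAP, was at 92.8, 121, 99.8 and 111 CPM in FAP and 623 and 721 in SMP (−2.67 ± 0.15, adjusted p = 8.3e-13). Calcr, Cdh15 and Vcam1 held against replicate 1 (−9.62, −9.42 and −2.55), and Sdc3 was the 1 lower member that did not (adjusted p = 0.48).

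Among the genes with the largest or most abundant signal toward SMP, several are no myogenic factors. Asb5, an ankyrin-repeat gene of muscle, was at 1.03, 1.25, 1.16 and 0.88 CPM in FAP and 713 and 719.7 in SMP (−9.38 ± 0.66, adjusted p = 1.3e-08). Fam132b, which codes for a secreted C1q-family hormone, was at 0.37, 0.47, 0.58 and 0.39 CPM in FAP and 279.8 and 323 in SMP (−9.34 ± 0.53, adjusted p = 7.6e-10). Chrdl2, an antagonist of BMPs, was at 0.09, 0.16, 0.1 and 0.1 CPM in FAP and 89.9 and 86.8 in SMP (−9.54 ± 0.47, adjusted p = 7.7e-12). For all 3 the SMP libraries were close to each other, and the differences against replicate 1 were −9.36, −9.22 and −9.56. Fndc3c1, on the X chromosome, had counts in 1 FAP library only (0, 0, 0.1 and 0 CPM) and stood at 84.1 and 55.1 CPM in SMP (−10.81 ± 0.50, adjusted p = 3.1e-13). Drp2, a relative of dystrophin, was at 13.9, 12.1, 10.4 and 11.9 CPM in FAP and 578 and 515 in SMP (−5.50 ± 0.17, adjusted p = 1.6e-17), and −5.57 ± 0.18 against replicate 1. Hspb1, a small heat shock gene, was the most abundant gene at least 4-fold lower in both fits, at 318, 514, 472 and 348 CPM in FAP and 2287 and 2195 in SMP (−2.44 ± 0.18, adjusted p = 1.1e-10). Filamin C (Flnc), an actin crosslinker of muscle, differed by −2.49 ± 0.22 (adjusted p = 5.8e-09) and by −2.70 ± 0.25 against replicate 1.

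Genes of early muscle differentiation followed the myogenic factors. Of 18 tested, 17 were lower in FAP, all 17 held, and the median was −5.64 (−5.02 with the 3 members at 0 in FAP set to their bound). Tmem8c, which codes for the fusion protein myomaker, had 0 counts in the 4 FAP libraries and 12.7 and 13.9 CPM in SMP. Chrnd, the delta subunit of the acetylcholine receptor, also had 0 counts in FAP and 11.5 and 4.15 CPM in SMP. Against a floor of 3 counts over the 4 FAP libraries, SMP was at least 167-fold higher for Tmem8c and at least 97.95-fold higher for Chrnd. Mef2c was called only against replicate 1, and there as higher in FAP (1.00).

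The receptor subunits Chrna1 and Chrng belong to the same module, and their promoters are shown because textbook targets of Myod1 and Myog carry E-boxes. Chrna1 was at 0.28, 0.31, 0.1 and 0.2 CPM in FAP and 94.1 and 102 in SMP (−8.77 ± 0.48, adjusted p = 5.6e-11), and −8.70 ± 0.52 against replicate 1. Chrng was at 0, 0, 0.1 and 0 CPM in FAP and 4.74 and 2.96 in SMP (−6.64 ± 0.81, adjusted p = 1.4e-06), and −6.93 ± 0.90 against replicate 1. FAP held 8 counts of Chrna1 and 1 count of Chrng in all. The E-box CAGCTG, which reads the same on both strands, was searched in RefSeq promoter windows of GRCm38.p6 that run from 250 bases before to 50 after a start. It lies in 5355 of 32851 windows (16.3%). The stretches below run 5′ to 3′ from 170 to 31 bases before the start, chr2:73580369-73580508 on the minus strand for Chrna1 and chr1:87205641-87205780 on the plus strand for Chrng, with the E-box in capitals.
Chrna1: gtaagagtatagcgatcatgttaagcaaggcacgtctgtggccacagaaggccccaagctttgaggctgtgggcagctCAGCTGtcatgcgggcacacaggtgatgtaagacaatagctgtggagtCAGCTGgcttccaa
Chrng: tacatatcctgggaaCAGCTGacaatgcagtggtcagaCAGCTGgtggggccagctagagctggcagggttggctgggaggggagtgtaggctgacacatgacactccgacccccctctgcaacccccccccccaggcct
Each window holds 2 copies, whose first bases lie 92 and 44 bases before the start in Chrna1 and 155 and 132 before it in Chrng. A match of letters does not show that a factor binds there.

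Transcripts of mature fibres were low in both populations and lower in FAP for 19 of 20 genes, of which 16 held against replicate 1. Skeletal actin (Acta1) was at 16.8, 9.24, 11.6 and 11.1 CPM in FAP and 72.6 and 206 in SMP, a difference of −3.49 ± 0.31 (adjusted p = 4.4e-08) and of −2.55 ± 0.24 against replicate 1. The fast myosin gene Myh4 was at 2.52, 1.57, 1.65 and 1.57 CPM in FAP and 25.3 and 80.2 in SMP (−4.82 ± 0.44, adjusted p = 4e-08), and −3.75 ± 0.39 against replicate 1. Replicate 2 held more of both than replicate 1. Ryr1, the calcium release channel, was at 0.56, 0.31, 0.48 and 0.2 CPM in FAP and 35.6 and 19.4 in SMP (−6.07 ± 0.39, adjusted p = 6.7e-12), with more in replicate 1. Reads of closely related actin and myosin genes may be split between copies, so single values in these families are uncertain.

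The genes taken to be removed in DKO were looked up in each FAP and SMP library of DKO. Des, on chromosome 1 from 75360292 to 75368579 (Entrez gene 13346), had 5.04, 5.33, 4.36 and 3.43 CPM in FAP and 75.4 and 54.2 in SMP, and Syne1, on chromosome 10 from 5020192 to 5550692 (Entrez gene 64009), had 45.4, 37.8, 42.7 and 55.3 CPM in FAP and 37.03 and 35.9 in SMP. Counts over a whole gene cannot show a deleted part, so these values do not check the labels. Des was lower in FAP by a difference of −3.85 ± 0.19 (adjusted p = 6e-14) and −4.06 ± 0.20 against replicate 1. Syne1 did not pass (0.32 ± 0.16, adjusted p = 0.092), nor against replicate 1 (adjusted p = 0.23). Leaving out FAP replicate 2 brought Syne1 to 0.39 (adjusted p = 0.043).

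Among 24 genes of the dystrophin complex, intermediate filaments and nuclear envelope, 7 were higher in FAP and 13 lower, with 7 and 12 held and a median of −0.64. Over all genes 29.2% were higher and 29.6% lower, so the higher count of this list was near the background. Alpha-sarcoglycan (Sgca), a membrane partner of dystrophin, was at 0.09, 0, 0.39 and 0.29 CPM in FAP and 21.1 and 22.1 in SMP (−6.59 ± 0.43, adjusted p = 1e-11), and −6.55 ± 0.49 against replicate 1. Nestin (Nes), a filament of progenitors, was at 6.72, 4.39, 3.39 and 5 CPM in FAP and 58.9 and 57.04 in SMP (−3.56 ± 0.22, adjusted p = 3.7e-12). Dystrophin (Dmd, −2.15) was lower too. The sarcoglycan genes Sgcb (0.56), Sgcd (2.55) and Sgce (1.86), sarcospan (Sspn, 1.14) and the filament gene Synm (1.39) were higher in FAP. All 8 of these were called the same way against replicate 1.

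Receptors for matrix were divided evenly, 13 of 29 higher and 13 lower, with 13 and 12 held and a median of −0.14. Dystroglycan (Dag1), a laminin receptor, was at 264, 230.2, 246 and 239.8 CPM in FAP and 1264 and 1081 in SMP, a difference of −2.26 ± 0.11 (adjusted p = 3.5e-14) and of −2.35 ± 0.12 against replicate 1. The laminin receptor Bcam was at 3.82, 0.31, 1.84 and 0.98 CPM in FAP and 51.7 and 73.3 in SMP (−5.05 ± 0.65, adjusted p = 7.3e-06). The integrin chains of laminin receptors Itga3 (−4.45), Itga6 (−3.63) and Itgb4 (−3.95) were lower in FAP. The collagen receptors Itga11 (3.20) and Ddr2 (1.56) were higher in FAP, as was Itgb3 (3.13), whereas the collagen receptors Itga10 (−2.12) and Ddr1 (−2.33) were lower. Each of these 10 genes held against replicate 1. The common beta chain Itgb1 did not pass (−0.06 ± 0.11). Beside the counts of this list, 29.2% of all genes were higher and 29.6% lower.

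In the Notch pathway, which holds satellite cells undifferentiated, 13 of 21 were lower in FAP and 2 higher, with 11 and 1 held. Notch3 was at 30.6, 31.3, 22.2 and 27.8 CPM in FAP and 556 and 532 in SMP, a difference of −4.29 ± 0.27 (adjusted p = 4.6e-10) and of −4.31 ± 0.30 against replicate 1. Receptor Notch1 (−2.32), ligands Dll1 (−3.88) and Jag2 (−3.99), and targets Nrarp (−4.79), Hey1 (−2.81) and Heyl (−2.53) were lower in both fits. Mfng and Notch4, both low, did not pass against replicate 1 (adjusted p of 0.066 and 0.8). Of 37 Wnt genes 20 were higher and 9 lower, with 18 and 9 held. This lower count was not above the 29.6% of all genes that were lower, beside 29.2% higher. Ligands Wnt10b, at 24.2, 14.3, 15 and 12.7 CPM in FAP and 0 and 1.19 in SMP (4.86 ± 0.55), and Wnt2, at 15.4, 12.1, 6.39 and 12.8 CPM in FAP and 0 and 1.19 in SMP (4.34 ± 0.59), had 0 counts in SMP replicate 1. The Wnt amplifier Rspo3 was at 9.33, 6.42, 8.81 and 5.98 CPM in FAP and 0 and 0.59 in SMP (4.72 ± 0.57), also with 0 counts in replicate 1. Secreted antagonists were on both sides, with Dkk2 (4.10), Sfrp4 (3.89) and Sfrp2 (3.46) higher in FAP and Sfrp5 lower (−6.20).

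In the TGF-beta, activin and BMP pathway 16 of 41 genes were higher and 12 lower, with 15 and 9 held and a median of 0.26. Over all genes 29.2% were higher and 29.6% lower, so the lower count was near the background. Follistatin (Fst), which binds activin and myostatin, was at 324, 270.3, 312 and 309 CPM in FAP and 4.22 and 25.2 in SMP, a difference of 4.39 ± 0.42 (adjusted p = 2.3e-07) and of 6.18 ± 0.29 against replicate 1. Fstl1, a secreted relative, differed by 2.86 ± 0.22 (adjusted p = 1.8e-10), and the ligand Gdf10 by 3.98 ± 0.47 (adjusted p = 3.1e-06). Myostatin (Mstn), an inhibitor of muscle growth, was at 0.75, 0.31, 0.29 and 1.08 CPM in FAP and 6.06 and 3.26 in SMP (−2.87 ± 0.52, adjusted p = 8.7e-05), and −3.22 ± 0.59 against replicate 1. The ligand genes Tgfb1 (−0.24 ± 0.15) and Bmp4 (0.26 ± 0.16) did not pass, while the receptor Tgfbr2 was higher in FAP (1.99 ± 0.14).

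Growth factor ligands counted 17 of 31 higher in FAP and 5 lower, and all 22 held. Fgf10 was at 14.6, 10.7, 12.6 and 11.9 CPM in FAP and 0.26 and 0.74 in SMP (4.64 ± 0.40, adjusted p = 9.6e-10), and Fgf7, another fibroblast growth factor, at 58.3, 60.3, 59.5 and 58.8 CPM in FAP and 2.24 and 5.33 in SMP (3.99 ± 0.27, adjusted p = 1.6e-11). Insulin-like growth factor 1 (Igf1) was higher in FAP (2.88) and Igf2 lower (−1.71). Pdgfb, a ligand of the receptor that marks FAP, was at 1.03, 0, 0.48 and 0.1 CPM in FAP and 16.2 and 23.9 in SMP (−5.46 ± 0.57, adjusted p = 4.4e-08), and −5.15 ± 0.65 against replicate 1. The neurotrophic ligand Gdnf was at 2.8, 3.6, 2.42 and 3.23 CPM in FAP and 52.3 and 57.6 in SMP (−4.20 ± 0.21, adjusted p = 6e-14), while its receptors Ret (1.64) and Gfra1 (0.62) were higher in FAP, in both fits. Of 28 growth factor receptors 12 were higher and 8 lower, with 11 and 7 held, the lower count again near the 29.6% of all genes. Fgfr4 was at 0.93, 0.16, 0.87 and 0.29 CPM in FAP and 322 and 277 in SMP (−8.91 ± 0.49, adjusted p = 4.8e-10), and the hepatocyte growth factor receptor Met was lower as well (−2.69). The endothelial receptor Flt1 was lower with both libraries (−3.27 ± 0.76) and did not pass against replicate 1 (−0.78 ± 0.84).

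Chemokine and cytokine genes were higher in FAP for 21 of 29 and lower for 2, with 20 and 2 held. Cxcl14, a chemokine of fibroblasts, was at 495, 664, 871 and 552 CPM in FAP and 16.5 and 83.6 in SMP (3.70 ± 0.49, adjusted p = 9.8e-06), and 5.30 ± 0.41 against replicate 1. The epithelial-type cytokine Tslp was at 26.3, 42.3, 38.7 and 45.5 CPM in FAP and 1.98 and 4.44 in SMP (3.59 ± 0.35, adjusted p = 2.5e-08). Il6 (2.92), Ccl11 (3.16) and Cxcl12 (2.25) were also higher in both fits. Clcf1, a cytokine of the interleukin 6 family, was at 2.8, 4.7, 5.81 and 4.41 CPM in FAP and 64.7 and 66.1 in SMP (−3.89 ± 0.19, adjusted p = 3.8e-14). For complement, 12 of 18 genes were higher and 5 lower, with 12 and 0 held. The lower complement count was near the 29.6% of all genes that were lower, beside 29.2% higher. C3, the central component, was at 4006, 3556, 2876 and 3241 CPM in FAP and 7.64 and 356 in SMP, a difference of 4.24 ± 0.93 (adjusted p = 0.0012) and of 8.81 ± 0.50 against replicate 1. With only the compared groups in the fit C3 was not called (adjusted p = 0.093). Factor B (Cfb) differed by 3.81 ± 0.46 (adjusted p = 4e-06) and by 5.72 ± 0.35. The 5 lower genes, C1qa, C1qb, C5ar1, Cfp and Cd59a, all failed against replicate 1. C4a and C4b are near-identical copies, so their single values are uncertain.

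Cell cycle genes were lower in FAP for 23 of 26, with 21 held and a median of −2.19. Mki67, a marker of dividing cells, was at 7.65, 7.83, 4.65 and 9.99 CPM in FAP and 164 and 101 in SMP (−4.14 ± 0.36, adjusted p = 5.7e-08), and −4.43 ± 0.39 against replicate 1. Top2a, a topoisomerase of replicating cells, was at 5.6, 3.45, 4.55 and 7.45 CPM in FAP and 118 and 89.2 in SMP (−4.27 ± 0.39, adjusted p = 9.5e-08). The mitotic kinase gene Aurkb (−4.74) and cyclin A2 (Ccna2, −4.33) were lower in both fits. Among D-type cyclins Ccnd1 was lower in FAP (−3.44), Ccnd2 higher (1.69) and Ccnd3 did not pass (−0.16). Of 18 immediate early genes, which respond to stress and to tissue dissociation, 12 were higher and 1 lower, each held. Junb was at 1780.0, 2569, 1890.2 and 1709 CPM in FAP and 455 and 798 in SMP (1.67 ± 0.23, adjusted p = 1.7e-06), and Nr4a1 differed by 1.33 ± 0.17 (adjusted p = 5.7e-07). The summed level of the list was 38746 to 49609 CPM in FAP and 37904 and 43285 in SMP, most of it from the near-identical heat shock genes Hspa1a and Hspa1b, which did not pass. The difference between FAP and SMP was higher in DKO than in WT for 8 of these 18 genes, against 4.92% of all genes, by the test described last. The part of handling in these differences was not tested.

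Marker lists of other cell types depended on the SMP library. All 15 immune genes called lower in FAP failed against replicate 1, and 14 of the 17 tested changed sign. Cd74, an antigen presentation gene, was at 23.3, 3.13, 2.23 and 0.69 CPM in FAP and 3.43 and 274 in SMP, so its −4.18 with both libraries became 1.14 against replicate 1, and −6.18 without FAP replicate 1. Ptprc was at 1.77, 0.16, 0 and 0 CPM in FAP and 0.13 and 14.4 in SMP, where replicate 1 held 1 count. The count of lower immune genes was 2 with a replicate block, 3 by DESeq2's Wald test, 7 with a column letter block and 0 with only the compared groups. Among the 22 immune genes measured, 7 had 0 counts in SMP replicate 1, Itgam and the macrophage gene Emr1 among them. Of 12 endothelial genes called lower 1 held (Erg, −1.97). Pecam1, which joins endothelial cells, was at 17.4, 6.27, 6.87 and 4.21 CPM in FAP and 15.6 and 159 in SMP (−3.29 ± 0.75, adjusted p = 0.0015, and −0.80 ± 0.81 against replicate 1). Tek, a receptor on the same list, was higher in FAP in both fits (1.19).

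Smooth muscle and Schwann cell markers, by contrast, were present in both SMP libraries. Smooth muscle actin (Acta2) was at 16.1, 7.05, 4.36 and 3.92 CPM in FAP and 282 and 325 in SMP, a difference of −5.25 ± 0.47 (adjusted p = 1.7e-07) and of −5.13 ± 0.53 against replicate 1. The summed list was at 458 to 531 CPM in FAP and 1333 and 1539 in SMP. In SMP WT it was at 1837.5 and 1812.1 CPM. The sum includes Des and Notch3, which are also counted here as myogenic and Notch genes. The smooth muscle myosin gene Myh11 was at 10.8, 6.11, 2.52 and 3.53 CPM in FAP and 122 and 149 in SMP (−4.55 ± 0.48, adjusted p = 1e-06). Of 12 pericyte and smooth muscle genes, which include Des and Notch3, 8 were lower and 2 higher, with 7 and 2 held, and the pericyte gene Rgs5 was the 1 lost (adjusted p = 0.14). Of 13 Schwann cell genes 10 were lower and 2 higher (Pmp22 and S100b), and all 12 held. The summed list was at 399 to 445 CPM in FAP and 426 and 583 in SMP, with no listed gene at 0 in either SMP library. Sox10, the lineage factor of Schwann cells, was at 0.93, 0.16, 0.1 and 0 CPM in FAP and 8.7 and 7.85 in SMP. Replicate 1 alone thus does not leave a library free of other markers, and the part of such cells in the myogenic and Notch differences was not tested.

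Of 13 tendon genes 10 were lower in FAP and 2 higher (Comp and Egr1), with 5 and 2 held. The higher count was 1 without SMP replicate 1, without any 1 of the FAP libraries, with DESeq2 size factors, with no filter, with only the compared groups and with a replicate block, and 0 under library totals. Ptx4, a pentraxin gene, was at 3.36, 2.51, 2.03 and 2.35 CPM in FAP and 18.7 and 26.2 in SMP (−3.12 ± 0.18, adjusted p = 1.3e-12), and −2.84 ± 0.21 against replicate 1. Scleraxis (Scx), the tendon lineage factor, was at 1.77, 4.7, 2.03 and 2.06 CPM in FAP and 9.62 and 9.63 in SMP (−1.96 ± 0.29, adjusted p = 6.7e-06). The homeobox factor Mkx, another of that lineage, differed by −1.94 ± 0.27 and by −1.85 ± 0.34 against replicate 1. Of 7 adipocyte genes tested 4 were lower and 1 higher, with 2 (Plin4 and Pnpla2) and 1 (Lpl) held. Lipoprotein lipase (Lpl) was at 1740.2, 1591, 2042 and 1485 CPM in FAP and 280.4 and 455 in SMP (2.22 ± 0.23, adjusted p = 2.6e-08). Fabp4, a fatty acid carrier of adipocytes and endothelium, was at 28.4, 8.93, 6.2 and 3.72 CPM in FAP and 16.9 and 186 in SMP and did not pass against replicate 1 (adjusted p = 0.73). The defining adipocyte genes Adipoq, Plin1 and Cidec had 0 counts in both SMP libraries. Of 9 erythroid genes 1 could be tested, Alas2, at 0.47, 0.47, 0.19 and 0.29 CPM in FAP and 0.79 and 5.63 in SMP.

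The FAP to SMP difference of DKO was then set against that of WT, which shares no library with it. The difference between the conditions was called for 1465 genes (10.3%), 697 higher in DKO (4.92%) and 768 lower (5.42%), and 755 of them were called alike without SMP DKO replicate 2. Leaving out SMP WT replicate 1 brought the count to 796. Thbs4, a thrombospondin of tendon and of injured muscle, was at 368, 272, 318 and 363 CPM in FAP WT and 2726 and 2367 in SMP WT. In DKO it was at 2677, 3231, 2565 and 4178 CPM in FAP and 1963 and 3212 in SMP. The lower level of FAP in WT was thus absent in DKO, where the groups overlapped. The log2 difference was −2.95 in WT and 0.29 in DKO, a change of 3.24 ± 0.29 (adjusted p = 1.7e-07) and of 3.64 without SMP DKO replicate 2. Rgs4, which shortens signals of G proteins, was at 4.32, 1.42, 3.42 and 1.81 CPM in FAP WT and 138 and 121 in SMP WT, and in DKO at 12.03, 13.8, 11.9 and 13.9 in FAP and 14.6 and 29.3 in SMP. Its difference changed by 4.75 ± 0.50 (adjusted p = 1.6e-05), and by 5.34 without replicate 2. Kif1a, a motor gene of neurons, had a difference of −3.27 in WT and −0.03 in DKO (3.25 ± 0.36, adjusted p = 3.3e-06). Col22a1 had −7.32 in WT and −4.10 in DKO (3.23 ± 0.53, adjusted p = 0.0011), the kinase gene Dclk3 −6.33 and −2.97, and Rhoh, a GTPase gene of blood cells, −9.29 and −6.02. The first 5 of these genes were called without replicate 2 and without each other library in turn, whereas Rhoh was not called without FAP DKO replicate 1 (adjusted p = 0.1).

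In the other direction Pik3r5, a regulator of a phosphoinositide kinase, was at 3.93, 3.65, 4.17 and 2.28 CPM in FAP WT and 0.16 and 0.18 in SMP WT, and in DKO at 4.29, 13.3, 11.4 and 7.94 in FAP and 5.67 and 13.8 in SMP. Its difference changed by −4.37 ± 0.84 (adjusted p = 0.0018) and by −3.60 without replicate 2 (adjusted p = 0.011). The other 5 genes of the rule, Wnt10b, Cmah, Il1r2, Syk and Ifi205, were called with both SMP libraries and not without replicate 2 (adjusted p of 1, 0.57, 0.65, 0.51 and 0.67). The same held for Pdgfra, whose difference was 6.94 in WT and 4.11 in DKO (−2.82 ± 0.74, adjusted p = 0.026) and changed by −0.24 without replicate 2 (adjusted p = 0.64). Of the tendon list 9 of 13 genes had a higher difference in DKO, against 4.92% of all genes. Among them were Ptx4 (3.13 ± 0.30) and Scx (2.75 ± 0.45). Of the mature fibre list 10 of 20 had a lower one, against 5.42% of all genes. Myh4 was among them (−3.55 ± 0.66, and −2.49 without replicate 2). The mature fibre list summed to 418 and 896 CPM in SMP DKO and to 250 and 292 in SMP WT. How many of these list calls hold without SMP DKO replicate 2 is not given.

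**Figure D5:**
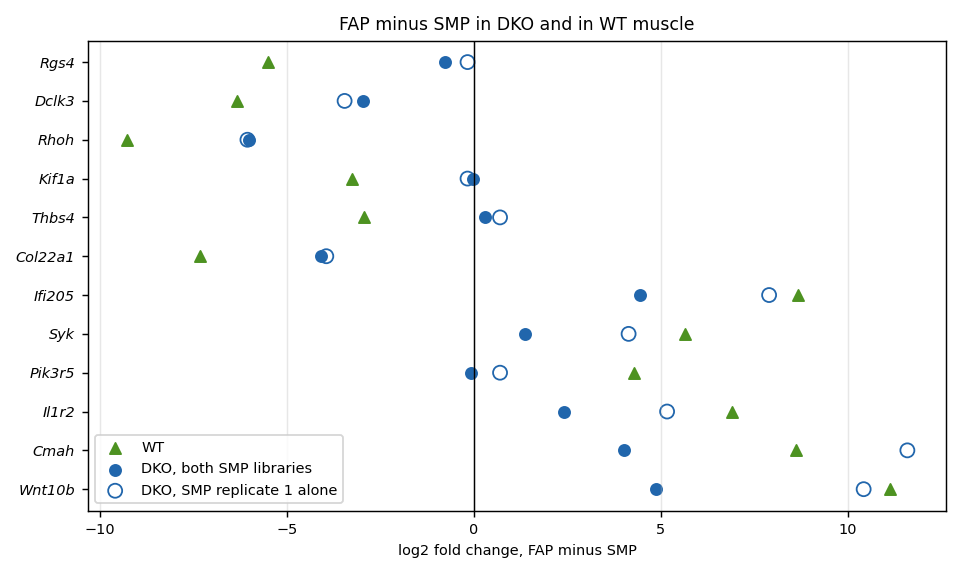
log2 fold change, FAP minus SMP, of the 12 genes with the largest change between conditions: green triangles are WT, filled circles DKO with both SMP libraries, open circles DKO with SMP replicate 1 alone. Open and filled circles lie together for Rhoh and Kif1a and far apart for Cmah and Wnt10b, which had 0 counts in replicate 1, so that their open circles depend on the prior count of the fit.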

How the data were processed

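RNA of FAP, SMP and 1 other population from DKO and WT muscle was sequenced in 20 libraries. Per the series' design text, 100-base paired reads of a HiSeq 2500 were aligned with OSA to mm10 with RefSeq genes, and the submitters' processing notes also name DESeq2. The authors deposited raw counts per gene in a single table. No source used here gives the counting tool or its use of strand, so overlapping antisense genes and near-identical copies are uncertain. The labels' protocols describe column purification of RNA after lysis.

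The table held 24393 genes, of which 24312 matched RefSeq in GRCm38.p6 and 5031 had no count in any library. Blank or date-like symbols (52) were restored from their gene identifiers. Genes with a count of 10 or more in enough libraries for the smallest group and a total of 15 were kept (edgeR's filterByExpr), which left 14179. With edgeR 4.0.16 in R 4.3.3, TMM scaling and 1 quasi-likelihood fit of all 6 groups without a block gave FAP minus SMP in DKO and its difference from WT. Adjusted p is Benjamini-Hochberg over these genes, and the standard error is the log2 fold change over the root of the F value. Library totals of 6 to 11 M make 1 count 0.1 to 0.2 CPM, and floors and totals cover counting error only. The steps were tested on simulated data of 13912 genes: the DKO comparison recovered 61% of 2-fold and 91% of 4-fold changes, and the difference from WT 37% and 86%. Both SMP DKO libraries were simulated from the same mean and few genes were changed. The departure of SMP replicate 2 was therefore not modelled, and these rates need not carry over to the data.

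Genes were named by rule, first the 10 largest and 8 most abundant differences each way that were called in both fits without overlap. These had 20 CPM or more in the higher group, the abundant ones were also at least 4-fold different, and predicted genes were left out. Added were up to 4 called members of each list, 8 set genes, and the 6 largest each way between conditions. A few genes that the rules pick are not reported here. Other list members named were chosen after their values were seen. The comparison, the 31 lists and the rules were chosen with earlier results of these data known. Alternatives were DESeq2 1.42.0 size factors and Wald test, library totals, no filter, only the groups compared, replicate and column letter blocks, each library left out, and stricter thresholds.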

Additional observations from a re-analysis of the deposited data

Results flagged for a closer look

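Within the 4 FAP libraries, 49 sets of values were examined for a library far from the others, and 6 stood out. A chance rate of about 1 in 20 does not carry over to genes with 1 count per library, so no excess is read from this. C7 was at 639.4 CPM in replicate 3, and Fn1 was lowest there, at 5619.3 CPM. Myod1 and Chrdl2, both nearly absent from FAP, were highest in replicate 2 at 0.16 CPM each, and Fndc3c1 in replicate 3 at 0.1 CPM, which is 1 count per library. Of the FAP libraries, replicate 2 had the smallest total (6.74 M), so 1 count there gives the highest CPM. The summed immune markers reached 128.5 CPM in replicate 1.

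Examined were the genes named for the size or abundance of their difference, the set genes and those named for their change between conditions. Of these, 17 had a FAP to SMP difference called different between DKO and WT, by edgeR's quasi-likelihood test of the difference itself. The genes named for their change were picked by this same test, so their calls were fixed in advance. Syne1, Kcp, Cd248, Pdgfra and Gsn were named on other grounds. The difference was higher in DKO for Rgs4 by 4.75, Dclk3 by 3.36, Rhoh by 3.28, Kif1a by 3.25, Thbs4 by 3.24 and Col22a1 by 3.23 on the log2 scale, and these 6 were also called without SMP replicate 2 (adjusted p = 7.2e-08 to 0.028). Syne1 was higher by 0.72 (adjusted p = 0.037), and not called without that library (adjusted p = 0.1). The values toward WT were −6.27 for Wnt10b, −4.61 for Cmah, −4.49 for Il1r2, −4.37 for Pik3r5, −4.29 for Syk and −4.24 for Ifi205. The FAP genes Kcp, Cd248, Pdgfra and Gsn had −3.67, −2.88, −2.82 and −1.8. Of these 10 lower values Pik3r5 was the 1 called without SMP replicate 2 (adjusted p = 0.011), the others having an adjusted p of 0.3 to 1.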

How the results depend on the processing

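Of 8344 genes called, 4362 were also at least 2-fold different. Leaving out 1 library at a time gave 6470 to 8200 genes called, 3272 to 4092 higher and 3198 to 4108 lower, the lowest without SMP replicate 1. The difference between DKO and WT was called for 796 (without SMP WT replicate 1) to 1779 genes (without SMP DKO replicate 1). Values turned sign without SMP replicate 2, and were lowest without FAP replicate 1, for Cd74 (−6.18 to 1.14), Itgam (−6.18 to 4.95, the latter from 0 counts in SMP replicate 1), H2-Aa (−6.09 to 1.52) and Ptprc (−7.17 to 1.89). For the difference from WT, Cmah ran from −8.08 without SMP WT replicate 1 to 2.98 without SMP DKO replicate 2 (0 counts in replicate 1). Under library totals Syne1 was −0.01, the growth factor receptors called lower became 13 in place of 8 and the ligands 8 in place of 5. The cause was not tested. Of 158 single-gene values, 138 kept direction and side of the threshold without SMP replicate 2, 140 did with only the compared groups, and 152 to 158 under each other analysis setting.

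The labels do not say that replicate numbers mark shared animals. Deviations of same-numbered FAP and SMP libraries correlated at −0.224 and −0.075 across genes, and those of adjoining column letters at 0.075 and −0.113. The deviations of the 2 SMP libraries mirror each other, so each FAP library gave the same value against both, with opposite sign. These correlations therefore cannot decide whether the numbers or the letters pair the samples. The main fit used no block. With a replicate block 8069 genes were called (4038 higher, 4031 lower) and 1432 between conditions, and with the column letter as block 8146 (4053 and 4093) and 1972. Among the single-gene values followed, and beside the immune genes, the replicate block ended 2 calls by edgeR's quasi-likelihood test. These were Timp4 (adjusted p = 0.057) and, between conditions, Wnt10b (adjusted p = 0.072). Counts of several gene lists shifted as well, in both directions. All calls rest on 2 SMP libraries of about 6 M counts, and a large difference does not make a call certain. Cd74, for example, ran from −6.18 without FAP replicate 1 to 1.14 without SMP replicate 2.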
